A study of Drosophila melanogaster with 6 samples.

Results

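The centromere-proximal Rbf and Dp peaks of chromosome arms 2L and 3L were described here from 2 peak lists, 1 for each protein. A peak was a member when its start, as written in the lists, lay at or beyond 21000000 on 2L or at or beyond 22500000 on 3L, whether or not the other protein had a peak there. The rule took 831 of the 8620 peaks in both lists, namely 441 of 3471 Rbf peaks and 390 of 5149 Dp peaks. On 2L the members were 185 Rbf and 167 Dp peaks, and on 3L they were 256 Rbf and 223 Dp peaks. They were compared with the remaining 873 Rbf and 1656 Dp peaks of the same 2 arms. Coordinates are those of build BDGP5, counted from 1.

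The study used chromatin immunoprecipitation and sequencing (ChIP-seq) on dissected flight muscles of pharate Drosophila melanogaster, the last stage before the adult emerges. Its 6 samples were 2 Rbf ChIPs with mouse antibodies DX3 and DX5 mixed 1:1, 2 Dp ChIPs with a rabbit antibody, and 2 inputs without antibody. All 6 samples, the inputs included, came from 1 genotype that joins the insertion P{UAS-mCherry-RNAi}attP2 with a Mef2-GAL4 driver on the third chromosome. This driver, active in muscle, expressed RNAi against mCherry, which the fly genome does not encode. The animals were staged 96 h after pupa formation. Rbf and input samples were labelled 25 °C and Dp samples 5 °C, although the growth protocol gave 25 °C throughout. Each antibody had 1 list over both of its samples, and no input signal was used here.

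Rbf is 1 of the retinoblastoma-family proteins of the fly and binds E2F transcription factors, and Dp is the partner that E2F factors need to bind DNA. E2F complexes that hold Rbf repress genes of DNA replication and cell division, and in muscle both proteins also sit at muscle genes. The coordinates of a left arm run from the telomere toward the centromere, so the members lie at the inner end of each arm. The inner ends of fly chromosome arms hold pericentromeric heterochromatin, chromatin rich in repeats and transposable elements, poor in genes, and marked by methylated histone H3 lysine 9 and HP1. The inner part of 2L also holds the tandem array of replication-dependent histone genes. The Release 6 gene table lists 111 copies of His1, His2A, His2B, His3 and His4 on 2L. That table belongs to another build, so neither the array nor any gene was placed on the peak coordinates.

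Peaks of both proteins were packed more densely in the proximal stretches than along the rest of the same arms. Rbf peaks numbered 109 per Mb of listed span in the proximal stretches (95% exact Poisson interval 98.9 to 119) and 20.1 per Mb on the rest (18.8 to 21.4), a ratio of 5.42 (4.82 to 6.09). Dp peaks numbered 96.2 per Mb in the proximal stretches (86.9 to 106) and 38.1 per Mb on the rest (36.3 to 39.9), a ratio of 2.53 (2.26 to 2.82). The Rbf list, the shorter of the 2 over the genome, was therefore the longer one in these stretches. Rbf peaks covered 12.6% of the proximal span and 1.31% of the rest, and Dp peaks covered 21.9% of the proximal span and 5.26% of the rest. The span ran to the last listed peak end of each arm, 23010932 on 2L and 24541662 on 3L, and held 4.05 Mb of proximal and 43.5 Mb of other sequence. These densities are a description, since the stretches were picked with a high density there already known. Once neighbours within 5 kb were merged, the ratios were 2.20 for Rbf and 1.47 for Dp. With only the peaks above the median score of the whole list, they were 3.02 and 1.42. Intervals over peaks cover counting error only. Neighbouring peaks are not independent and no values per sample were at hand, so replicate error is not included, and the read depth is unknown.

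**Figure D1:**
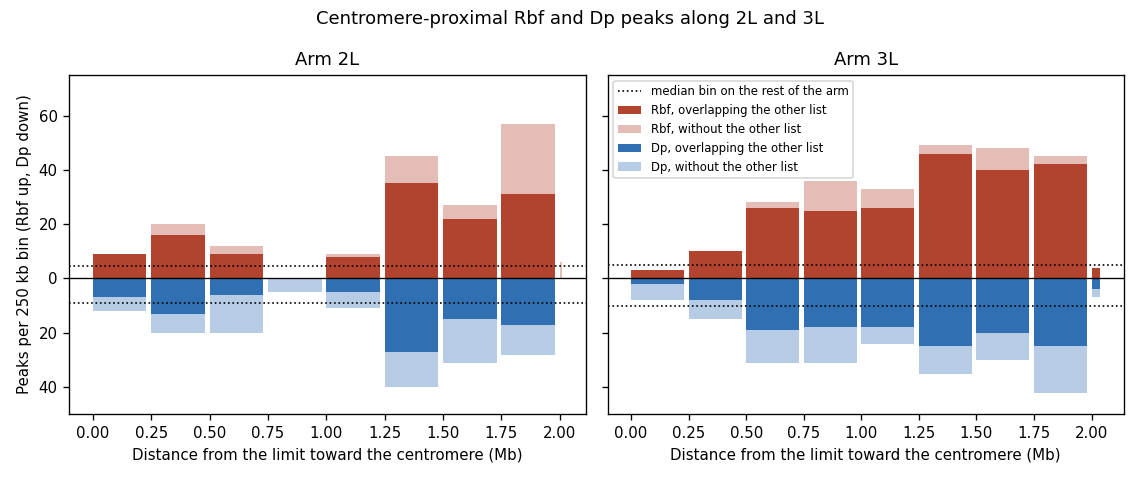
Number of Rbf peaks (upward) and Dp peaks (downward) per 250 kb bin against the distance in Mb from the limit of the proximal stretch toward the centromere, on 2L and 3L, in full colour for peaks that overlap the other list and in pale for those that do not. Dotted lines mark the median bin of the rest of the arm, and most bins from 0.5 Mb (3L) or 1.25 Mb (2L) inward stand far above them, with 57 Rbf peaks in the fullest bin of 2L; the last, narrow bin of each arm is shorter than 250 kb.

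Along 2L the members did not fill the stretch evenly. Bins of 250 kb from 21000001 on held 9, 20, 12, 0 and 9 Rbf peaks and then 45, 27 and 57, against a median of 4.5 and a maximum of 20 on the rest of the arm. The same bins held 12, 20, 20, 5 and 11 Dp peaks and then 40, 31 and 28, against a median of 9 and a maximum of 40. The fullest proximal Dp bin of 2L thus equalled the fullest bin on the rest of that arm. The crowding on 2L thus lay mostly beyond 22250001 and was preceded by a sparse stretch. From 21664981 to 22114256, or 449 kb, no Rbf peak was listed, although 8 Dp peaks lay there. From 21696632 to 21929835 neither list had a peak. The last, incomplete bin, from 23000001 to 23010932, held 6 Rbf peaks and 0 Dp peaks.

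On 3L the counts climbed and stayed high. The bins from 22500001 on held 3, 10, 28, 36, 33, 49, 48 and 45 Rbf peaks, against a median of 5 and a maximum of 15 on the rest of the arm. They held 8, 15, 31, 31, 24, 35, 30 and 42 Dp peaks, against a median of 10 and a maximum of 23. The fullest bin for Rbf was 23750001 to 24000000, where 46 of 49 Rbf peaks overlapped a Dp peak. For Dp it was 24250001 to 24500000, where 25 of 42 Dp peaks overlapped an Rbf peak. On 2L the fullest bin for Rbf was 22750001 to 23000000, with 31 of 57 overlapping, and for Dp 22250001 to 22500000, with 27 of 40 overlapping.

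The peaks on either side of the limit are given as a description. On 2L the last Rbf peak outside was 20927636 to 20928125 with a score of 445.79, and the first inside was 21051659 to 21052202 with 154.21. For Dp on 2L the last outside was 20976793 to 20981412 with 836.85, and the first inside 21020271 to 21023977 with 337.94. On 3L the last Rbf peak outside was 22401724 to 22401949 with 63.36, and the first inside 22571851 to 22572528 with 82.16. For Dp on 3L they were 22256316 to 22256823 with 51.78 outside and 22549483 to 22550457 with 151.50 inside. The score is the value the authors' peak calling gave each peak. It has no stated unit, is at least 50.01 in both lists, and ranks peaks only within its own list.

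Neighbours lay close together. The gap between one Rbf peak and the next had a median of 1634 bp in the proximal stretches and 22244 bp on the rest, and 69.9% of the proximal gaps and 25.0% of the others were at most 5 kb. Dp gaps had a median of 2701.5 bp in the proximal stretches and 10152 bp on the rest, with 63.9% and 37.4% at most 5 kb. Runs of at least 5 peaks joined by such gaps held 49.0% of proximal Rbf peaks and 4.01% of the others, and 39.0% of proximal Dp peaks and 11.8% of the others. The longest was a run of 26 Rbf peaks on 2L, 22978318 to 23004620, of which 8 overlapped Dp. The longest proximal Dp run held 10 peaks, on 2L at 21540231 to 21573107, while the longest on the rest held 18 on 2L and 11 on 3L.

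Proximal peaks of both proteins scored low for their list. Rbf scores had a median of 91.80 in the proximal stretches (quartiles 64.34 and 187.60) and 175.40 on the rest (88.57 and 365.21). Dp scores had a median of 177.07 in the proximal stretches (93.66 and 439.62) and 416.10 on the rest (129.74 and 1175.59). Above the median of their list on the 2 arms stood 32.9% of proximal Rbf peaks and 58.6% of the others (odds ratio 0.346, 95% interval 0.270 to 0.442, adjusted p = 8.5e-18 by two-sided Fisher's exact test). For Dp the shares were 31.0% of proximal peaks and 54.5% of the others (odds ratio 0.376, 0.295 to 0.478, adjusted p = 2.6e-16 by the same exact test). These p-values, and the others called adjusted over the 8 shares, use the Benjamini-Hochberg method. Both differences held on each arm alone.

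A few of the highest Rbf scores were nevertheless proximal. The highest of the list, 3205.34, lay on the rest of 2L. Below it scores pile up at 3100, where the Rbf list has 13 peaks. Of these, 6 were proximal and 0 lay on the rest of 2L and 3L, and all 6 overlapped a Dp peak. On 2L they were the neighbours 22408861 to 22412605 and 22412731 to 22416170, 3745 and 3440 bp wide, the first inside a Dp peak of score 3100 and the other inside a Dp peak of score 2933.20. The next Rbf score on 2L, 2660.39, belonged to 22283367 to 22290130, a peak of 6764 bp that matched the Dp peak 22283329 to 22290192 (score 3100) almost edge to edge. On 3L the first 3 by position were 23105535 to 23111052 (5518 bp), 23564663 to 23566087 (1425 bp) and 23730069 to 23730998 (930 bp). Each of them overlapped 1 Dp peak, with a score of 3100, 1286.71 and 2550.59 in that order. Of the 50 highest Rbf scores in the genome 8 were proximal, and of the 100 highest 11, while 12.7% of the whole list was proximal. Those longer tops thus held about the list's own share of members.

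For Dp the members at the top of the list were about as many as in the list as a whole, of which 7.57% was proximal. Of its 76 peaks at 3100, 6 were proximal and 21 lay on the rest of the arms, and of its 100 highest scores 8 were proximal. The highest proximal Dp score, 3190.54, belonged to 22754427 to 22760029 on 3L, a peak of 5603 bp over an Rbf peak of score 1136.01. The next on 3L by position were 22856292 to 22857822, over 2 Rbf peaks, and 23105625 to 23111130, over the Rbf peak of score 3100 named above. On 2L the 3 named by score were 21471181 to 21476129, 22283329 to 22290192 and 22407589 to 22412616, all at 3100 and all with an Rbf peak.

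Proximal peaks were wide. Median widths were 685 bp in the proximal stretches and 529 bp on the rest for Rbf, and 1367.5 bp in the proximal stretches and 864 bp on the rest for Dp. Of proximal Rbf peaks, 23 (5.22%) were at least 4 kb wide, against 9 (1.03%) on the rest (odds ratio 5.28, 2.33 to 13.1, adjusted p = 1.1e-05 by Fisher's exact test). Of proximal Dp peaks, 74 (19.0%) were that wide, against 145 (8.76%) on the rest (odds ratio 2.44, 1.77 to 3.34, adjusted p = 8.8e-08 by the exact test). Narrow Rbf peaks, under 300 bp, were fewer, with 23 (5.22%) in the proximal stretches and 131 (15.0%) on the rest (odds ratio 0.312, 0.188 to 0.498, adjusted p = 8.8e-08 by the exact test). Neither part of the Dp list had a peak under 300 bp on these arms. The Rbf result on wide peaks rested on where the stretch begins. With the limits moved inward to 22 Mb on 2L and 23 Mb on 3L, the odds ratio was 1.45 (p = 0.33, Fisher's exact test). Those limits move 9 of the 11 wide Rbf peaks of 2L, which lie between 21430161 and 21539510, into the comparison group. On 3L the wide peaks 22754456 to 22759977 and 22805332 to 22809508 move as well. The shares of wide Rbf peaks were then 3.10% proximal and 2.16% on the rest.

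The wide peaks carried much of the covered length. The 74 wide Dp peaks made up 51.4% of the proximal Dp length, and 63 of them overlapped an Rbf peak. The 23 wide Rbf peaks made up 24.5% of the proximal Rbf length, and 16 of them overlapped a Dp peak. The widest proximal Dp peak was 21449589 to 21466038 on 2L, 16450 bp with a score of 905.43 and no Rbf peak. The widest on 3L, 24454831 to 24466251, spanned 11421 bp with a score of only 65.64 and held 3 Rbf peaks. Among these was the widest Rbf peak of 3L, 24456620 to 24464388, 7769 bp with a score of 454.72. On 2L the widest Rbf peak, 22657798 to 22666464, spanned 8667 bp, and its Dp partner spanned 8714 bp.

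Wide peaks of both proteins stood side by side in 1 stretch of 2L that was chosen after its values were seen. There 4 Dp peaks of 4960, 4949, 4929 and 4360 bp followed each other from 21466108 to 21485566. Their starts were 5073, 5043 and 4983 bp apart, and their scores were 2691.18, 3100, 2812.15 and 2557.27. Within them lay 4 Rbf peaks of 4653, 4687, 4637 and 4198 bp, 1 in each Dp peak, with starts 4948, 5064 and 5024 bp apart and scores of 762.62, 544.79, 804.66 and 680.87. Both proteins thus repeated at nearly the same step of about 5 kb. On the telomere side the 16450 bp Dp peak without Rbf adjoined the group. On the centromere side the order turned round, with 6 Rbf peaks from 21486806 to 21539510 that had no Dp peak, of which 4 were at least 4 kb wide and 5 scored above the median. A Dp peak of 1144 bp at 21485612 to 21486755 closed the group, and the next Dp peak began at 21540231.

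**Figure D2:**
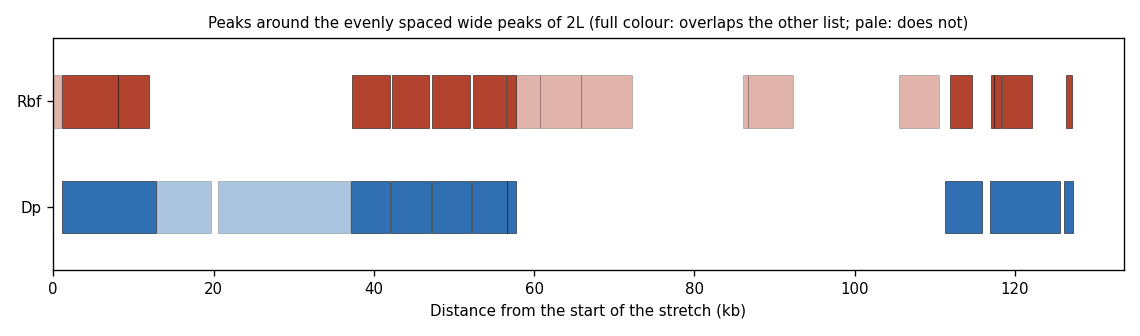
Extent of each Rbf peak (upper row) and Dp peak (lower row) in kb from the start of a stretch of 2L that holds the evenly spaced wide peaks, in full colour for peaks that overlap the other list and in pale for those that do not. The 4 wide Dp peaks near 40 to 55 kb each hold 1 wide Rbf peak, a 16450 bp Dp peak without Rbf lies to their left, and 6 Rbf peaks without Dp lie to their right.

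The overlap of the 2 lists differed between the proximal stretches and the rest, and it differed in opposite directions for the 2 proteins. Peaks counted as overlapping when they had 1 bp or more in common. A Dp peak was found at 352 of 441 proximal Rbf peaks (79.8%, 95% exact binomial interval 75.8 to 83.5) and at 791 of 873 others (90.6%, 88.5 to 92.5). This gave an odds ratio of 0.410 (0.292 to 0.575) with an adjusted p of 1.2e-07 by two-sided Fisher's exact test. An Rbf peak was found at 229 of 390 proximal Dp peaks (58.7%, 53.7 to 63.6) and at 697 of 1656 others (42.1%, 39.7 to 44.5). This gave an odds ratio of 1.96 (1.56 to 2.47) with an adjusted p of 9.4e-09 by the same exact test. The share of span covered by the other list differed as well, 21.9% proximal and 5.26% on the rest for Dp, and 12.6% proximal and 1.31% on the rest for Rbf. The stretches were also picked with a high density of peaks known, and the density ratios were 5.42 for Rbf and 2.53 for Dp. Neither share is therefore independent of that choice. The part of coverage and density in the overlap was not tested.

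**Figure D3:**
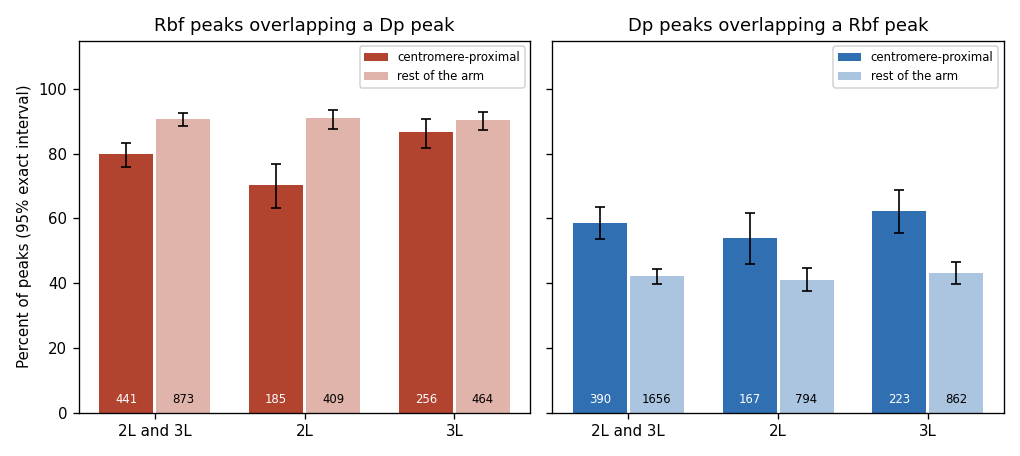
Percent of Rbf peaks that overlap a Dp peak (left) and of Dp peaks that overlap an Rbf peak (right), for the proximal stretches (full colour) and the rest of the arms (pale), over both arms and on each; bars show shares, error bars 95% exact binomial intervals over peaks, and numbers in the bars the peaks counted. Proximal Rbf peaks overlapped less often over both arms (79.8% and 90.6%) and proximal Dp peaks more often (58.7% and 42.1%), and on 3L the Rbf intervals overlap.

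The lower share for Rbf was seen mainly on 2L. There 70.3% of proximal Rbf peaks and 91.0% of the others overlapped Dp (odds ratio 0.236). On 3L the shares were 86.7% proximal and 90.3% on the rest (odds ratio 0.702, 0.426 to 1.16, p = 0.17 by Fisher's exact test). The odds ratio on 2L was 0.335 times that on 3L (0.173 to 0.650, p = 0.0012 by Woolf's test, a large-sample and not an exact test, and 0.0085 adjusted over the 7 shares that could be compared between arms). For Dp the odds ratios were 1.68 on 2L and 2.19 on 3L, and their difference did not pass the same test, not an exact one (adjusted p = 0.43).

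Both overlap results depended on how peaks were counted. When Rbf neighbours within 5 kb were merged, 91.8% of proximal and 90.8% of other groups of peaks overlapped Dp (odds ratio 1.13, p = 0.87 by Fisher's exact test). A group counted as overlapping when any of its peaks did. The 441 proximal Rbf peaks formed 134 groups and the 873 others formed 655. Proximal groups were thus larger and had more ways to overlap, so this setting cannot decide whether single peaks differed. Counts of single peaks in turn treat neighbours as separate cases. Merged Dp neighbours, under the same limit, overlapped Rbf in 76.8% of proximal and 55.4% of other groups (odds ratio 2.66, 1.75 to 4.13). Other settings gave a lower odds ratio for Rbf, but the midpoint and score settings also changed which Dp peaks could count as partners. The odds ratio was 0.163 in 200 bp windows at the peak midpoints (24.0% proximal and 66.0% on the rest) and 0.0667 with peaks of both lists above the median score (47.8% proximal and 93.3% on the rest). It was 0.194 at scores of at least 100 and 0.137 without Rbf peaks under 300 bp. Midpoint windows miss Rbf peaks that lie off-centre inside a Dp peak. The median midpoint distance of overlapping peaks was 411 bp proximal and 93 bp on the rest. Score minimums also removed low-scoring Dp partners, and proximal Dp peaks scored lower. The part of these rules in the lower odds ratios was not tested. For Dp 3 of these settings ended or turned the call. In the midpoint windows 27.2% of proximal and 34.7% of other Dp peaks met an Rbf peak (odds ratio 0.702, p = 0.0049 by the exact test), so the direction for Dp turned round. With only the peaks above the median score of each whole list the Dp odds ratio was 0.732 (p = 0.14, exact test). With scores of at least 100 it was 1.03 (p = 0.84, exact test).

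The score classes show where the Dp difference sat. The Dp peaks of the 2 arms were put into 4 classes of equal size by score. From the lowest class to the highest, 37.5%, 59.4%, 76.9% and 90.7% of proximal Dp peaks overlapped Rbf, against 3.99%, 9.79%, 48.5% and 92.8% on the rest. The proximal share was higher in the lower 3 classes (Fisher's exact test, p adjusted over 16 classes of score and width 1.2e-19, 1.1e-27 and 6.4e-06), and the difference did not pass in the highest (0.58). On the rest of the arms an Rbf peak thus accompanied chiefly the high-scoring Dp peaks, while in the proximal stretches it also accompanied many of low score. Rbf peaks covered 12.6% of the proximal span and 1.31% of the rest, and proximal Dp peaks were wider. The part of coverage and width in these classes was not tested. From the lowest class to the highest the odds ratios were 14.3, 13.4, 3.53 and 0.763. Their common value of 6.83 (Mantel-Haenszel estimate, 4.99 to 9.35) thus averages over classes that differed. Within classes of width the common value was 1.63 (Mantel-Haenszel estimate, 1.28 to 2.06).

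For Rbf the classes ran the other way. From the lowest class to the highest, 76.4%, 91.1%, 75.9% and 69.7% of proximal Rbf peaks overlapped Dp, against 79.8%, 86.5%, 94.0% and 97.3% on the rest. The proximal share was lower in the upper 2 classes (adjusted p = 3.8e-05 and 9.7e-10, Fisher's exact test), and no difference passed in the lower 2 (0.58 and 0.30). Rbf peaks of the highest class thus went with a Dp peak nearly always on the rest of the arms and in 46 of 66 cases in the proximal stretches. All proximal peaks of that class without Dp stood in the runs of consecutive Rbf peaks without Dp described below. The p-values count such neighbours as separate cases.

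**Figure D4:**
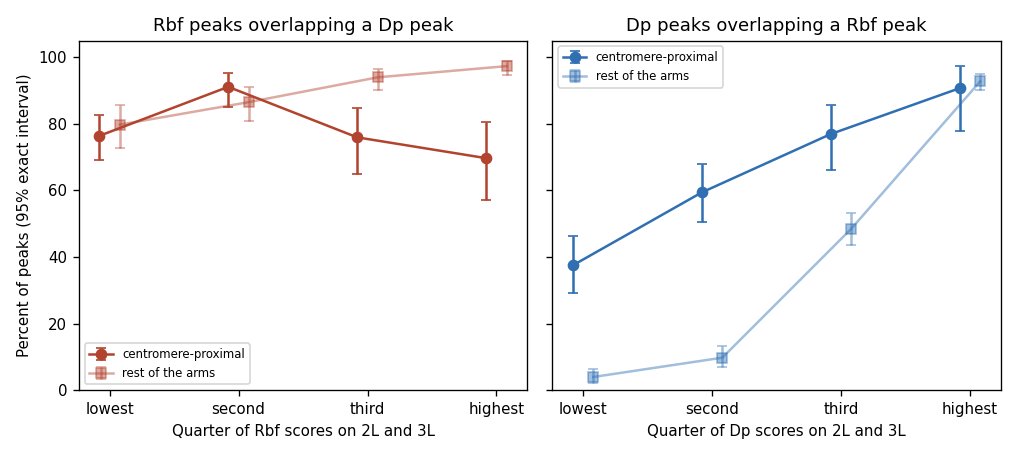
Percent of Rbf peaks that overlap a Dp peak (left) and of Dp peaks that overlap an Rbf peak (right) by class of the list's scores, 4 classes of equal size, on 2L and 3L, for the proximal stretches (circles) and the rest of the arms (squares), with 95% exact binomial intervals over peaks. Proximal Dp peaks of the lowest class overlapped in 37.5% and the others in 3.99%, while proximal Rbf peaks of the highest class overlapped in 69.7% and the others in 97.3%.

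Width classes gave a mixed picture for Dp. From the narrowest class to the widest, 36.7%, 40.6%, 51.3% and 75% of proximal Dp peaks overlapped Rbf, against 6.64%, 38.9%, 80.8% and 44.1% on the rest. The proximal share was higher in the narrowest and the widest class (adjusted p = 5.0e-09 and 5.5e-11, Fisher's exact test) and lower in the class of 919 to 1398 bp (3.0e-07). For Rbf the classes gave 76.9%, 91.7%, 81.6% and 73.9% of proximal peaks, against 71.0%, 99.1%, 99.6% and 95.9% on the rest. All but the narrowest class were lower in the proximal stretches (adjusted p at most 0.0016).

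Where the proteins met, Rbf peaks sat inside Dp peaks in both parts of the arms. Of shared Rbf peaks, 347 of 352 proximal (98.6%) and 774 of 791 others (97.9%) lay wholly inside a Dp peak (odds ratio 1.52, 0.534 to 5.33, Fisher's exact test, p = 0.49). The midpoints were farther apart in the proximal stretches, with a median distance of 411 bp there and 93 bp on the rest. A shared Dp peak also held more Rbf peaks. Of shared Dp peaks, 82 of 229 proximal (35.8%) and 66 of 697 others (9.47%) held 2 or more (odds ratio 5.32, 3.62 to 7.86, Fisher's exact test, p = 1.4e-18, adjusted over 2 comparisons 2.8e-18). Proximal Dp peaks were wider, and within classes of width the odds ratio was 2.15 (Mantel-Haenszel estimate, 1.39 to 3.33). Rbf peaks were also denser in the proximal stretches, which were picked with a high density known. The number of Rbf peaks per Dp peak is therefore not independent of that choice. The part of Rbf density in it was not tested. Both tests in this paragraph were added after the data were seen.

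The proximal Dp peak holding the most Rbf peaks on 2L was 22934385 to 22939541, with 5 in 5157 bp, as many as the fullest Dp peak of the rest of 2L. On 3L it was 24345842 to 24353594, with 6 in 7753 bp, the most in either part of both arms. Both had middling scores, 486.40 and 453.79. Shared proximal Dp peaks had a median width of 1855 bp and a median score of 263.51, against 1043 bp and 1300.94 for shared Dp peaks of the rest. By length, 74.5% of the proximal Rbf sequence lay in Dp peaks, against 94.9% on the rest, and 42.9% of the proximal Dp sequence lay in Rbf peaks, against 23.7% on the rest.

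Rbf peaks without Dp were of another shape in the proximal stretches. The 89 proximal ones had a median width of 815 bp, 7 were under 300 bp (7.87%) and 38 were 1 kb or wider. The 82 others had a median width of 254.5 bp, 58 were under 300 bp (70.7%) and 3 were 1 kb or wider. Their median scores were 87.85 in the proximal stretches and 88.95 on the rest, but the upper quartiles were 266.69 and 146.985. Above the median of the Rbf list on the 2 arms stood 43.8% of the proximal ones and 26.8% of the others. The arms went opposite ways, with medians of 156.35 proximal and 95.48 on the rest of 2L, and 68.34 and 86.42 on 3L. These shapes are a description.

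Most of the proximal ones stood in rows of consecutive Rbf peaks. A Dp peak that overlapped none of them could still lie in between, as 22804651 to 22806960 on 2L did. Runs of 5 or more consecutive Rbf peaks without Dp numbered 7 in the proximal stretches and 1 on the rest. The 7 runs held 59 of the 89 peaks, 43 in 4 runs on 2L and 16 in 3 runs on 3L. On 2L they lay at 21486806 to 21539510 (6 peaks), 22377012 to 22389857 (5), 22780550 to 22807832 (12) and 22988467 to 23010932 (20). On 3L they lay at 23348188 to 23362643 (6), 23656755 to 23671312 (5) and 24079288 to 24107157 (5). Of the proximal Rbf peaks outside these runs, 92.1% overlapped Dp. That share is higher by construction, since the runs were drawn from peaks without Dp. The highest Rbf score without Dp on 3L, 1046.24, belonged to 24086664 to 24090785 (4122 bp) in the last of these runs.

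The longest run stood at the very end of 2L. The last Dp peak of the arm was 22984831 to 22988344, 3514 bp with a score of 636.90, and it held 4 Rbf peaks. Beyond it 20 Rbf peaks followed, from 22988467 to 23010932, with no Dp peak. They were 171 to 2116 bp wide with scores of 56.79 to 1149.22, and 12 scored above the median. The highest was 22993780 to 22995116, also the highest Rbf score without Dp on proximal 2L, and it ranked 93 in the whole Rbf list. The next was 22999145 to 23001260 with 1083.34.

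**Figure D5:**
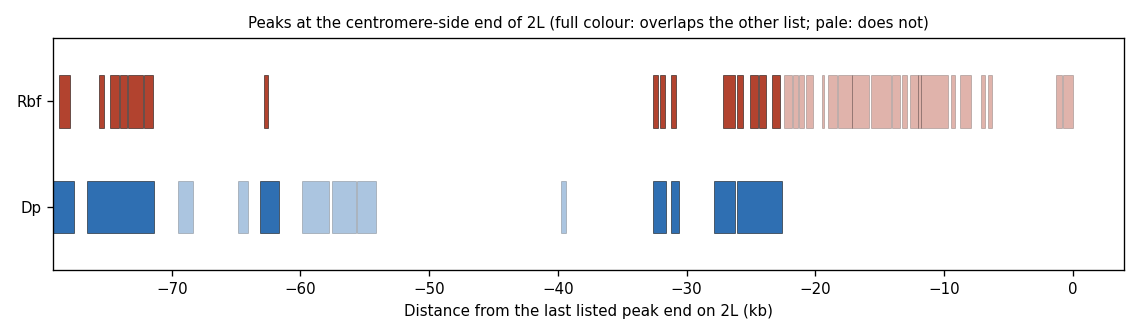
Extent of each Rbf peak (upper row) and Dp peak (lower row) at the inner end of 2L, in kb before the last listed peak end, in full colour for peaks that overlap the other list and in pale for those that do not. The last 20 Rbf peaks have no Dp peak, and the 8 Rbf peaks just before them all overlap Dp.

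Dp peaks without Rbf numbered 161 in the proximal stretches and 959 on the rest. The proximal ones were wider, with a median of 982 bp against 647 bp on the rest, and scored lower, with a median of 115.34 against 155.96, both given as a description. Proximal Dp runs without Rbf were at 21560555 to 21604706 (11 peaks), 21683252 to 22206654 (13) and 22489464 to 22507505 (6) on 2L. The 1 such run of 3L lay at 23997950 to 24015658 (5). Such runs were more numerous on the longer rest of the arms, where 28 on 2L held 205 of 468 Dp peaks without Rbf and 28 on 3L held 213 of 491. In the proximal stretches they held 30 of 77 on 2L and 5 of 84 on 3L. The run of 13 spanned most of the long gap in the Rbf list on 2L and ended in the highest Dp score without Rbf among the members on 2L, 1040.80 at 22201336 to 22206654. Among those on 3L it was 24362172 to 24366067 with 1309.98.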

How the data were processed

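ChIP-seq peaks of Rbf and Dp in flight muscles were read from 2 deposited lists, 1 per antibody over both of its samples. Column 5 is the score the authors deposited for each peak. Its unit, the pooling of samples, the control used in peak calling and the treatment of reads with several matches are not given in the sources used here. Build BDGP5 and the tools bcl2fastq 1.8.3, Bowtie2 2 and MACS 1.4.2 are named in the submitters' processing notes. Depth per sample is unknown. Nothing was filtered.

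Overlap meant 1 bp or more, with counts checked against bedtools 2.31.1. Two-sided Fisher's exact tests compared shares, adjusted by Benjamini-Hochberg over 8 of them, and Woolf's test compared the arms. Odds ratios within classes of score or width are Mantel-Haenszel estimates. Intervals at 95% are exact Clopper-Pearson for shares, exact Poisson for densities, exact binomial for density ratios and conditional exact for odds ratios. Those of Mantel-Haenszel estimates and of the ratio between arms are large-sample intervals. The software was scipy 1.17.1, pandas 2.3.3 and numpy 2.4.6 under Python 3.11.15, and tests were checked on simulated data. Named peaks are, for each list and arm, the 3 of highest score, the widest, the highest without the other protein, those beside the limit and the fullest 250 kb bin, with the Dp peak holding most Rbf peaks. Others, the runs and long gaps among them, were chosen after their values were seen. The members, limits and tests were chosen with earlier results of these data known. Alternatives were other overlap rules, score minimums, limits, merged neighbours, each arm alone and classes of score and width. The only genes at hand belong to Release 6, so peaks were assigned to no gene.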

Additional observations from a re-analysis of the deposited data

Results flagged for a closer look

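The contrast of proximal against other Rbf peaks differed between the 2 arms. The odds of overlapping a Dp peak, proximal over rest, were 0.236 on 2L and 0.702 on 3L, and the ratio of these was 0.335 (95% interval 0.173 to 0.650, adjusted p = 0.0085 over 7 comparisons by Woolf's test, not an exact test). On 2L, 43 of the 55 proximal Rbf peaks without Dp stood in 4 runs of 5 or more, and on 3L 16 of 34 stood in 3 runs. The part of these runs in the difference was not tested.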

How the results depend on the processing

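Of 62 alternatives for 8 shares that gave an odds ratio, 56 changed neither direction nor call. Among these shares is that of shared Dp peaks holding 2 or more Rbf peaks, which was added after the data were seen. It stands in place of the planned share of Dp peaks under 300 bp. For Rbf peaks with Dp the share had an odds ratio of 1.13 with neighbours within 5 kb counted once and 0.702 on 3L alone. Neighbours counted once overlapped Dp when any of them did. The share of Dp peaks with Rbf had 0.702 in 200 bp midpoint windows, 0.732 above the whole-list median score and 1.03 at scores of at least 100. The share of Rbf peaks of 4 kb or more had 1.45 with limits at 22 Mb and 23 Mb. The cause of these changes was not tested. The density ratio of Rbf was 3.58 at scores of at least 100 and 3.02 above the whole-list median score. It was 7.36 with limits at 22 Mb and 23 Mb and 4.04 with limits 1 Mb further out. With neighbours counted once it was 2.20, and on 2L alone 4.72. The density ratio of Dp was 2.23, 1.42, 3.15, 2.15, 1.47 and 2.20 under the same settings, and 2.85 on 3L alone. The share of Dp peaks under 300 bp gave no odds ratio, and with 400 bp as narrow it was 0.321 (1.54% proximal, 4.65% on the rest, Fisher's exact test, p = 0.0039). The tests within classes of score and width, the Mantel-Haenszel estimates among them, were chosen after seeing the data. So were the tests on Rbf peaks wholly inside Dp peaks and on Dp peaks holding 2 or more Rbf peaks, with the settings of the latter. No paired analysis was possible because each antibody has 1 list over both samples, with no values per replicate. Leaving out a replicate could not be tried either, and weak peaks that depth may have missed cannot be counted.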
